A study of Mus musculus with 2 samples.

Results

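Cluster 0 is a group of B cells from mouse colon, defined by the cluster number that the authors deposited for each cell. It held 1204 of 6886 cells, of which 550 were among the 3443 cells of the 5XFAD library and 654 among the 3443 cells of the WT library. The 5XFAD library pooled colon cells of 3 female mice aged 9 months carrying human transgenes that bear mutations of inherited Alzheimer disease, under neuron-directed Thy1 promoter elements. The WT library pooled 3 female littermates of the same age without those transgenes. Both libraries were made from live CD45+ cells, the leukocytes of the dissociated lamina propria, with 10x Chromium 3′ v3.1 chemistry, which counts each captured RNA molecule by a unique molecular identifier (UMI). Cluster 0 is described here against the other B cell clusters, numbered 1 to 5, and between the libraries. Each genotype is 1 pooled library, so no test between genotypes was possible, and every interval below is a 95% interval for counting error only, without the spread between mice or preparations.

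B cells recognise antigen through a membrane immunoglobulin, in naive cells IgM and IgD, paired with a kappa or a lambda light chain. The Cd79a and Cd79b proteins carry its signal into the cell, kinases such as Lyn, Syk and Btk pass it on, and receptors such as Cd22, which recruits the phosphatase encoded by Ptpn6, damp it. B cells also present antigen on MHC class II, whose genes are switched on by Ciita. In the colon, B cells sit in isolated lymphoid follicles and lymphoid patches, where they can switch to IgA and become plasma cells.

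The cells of cluster 0 held 2845627 UMIs in 5XFAD and 3207207 UMIs in WT, with medians of 5018 UMIs and 1659.5 genes per cell in 5XFAD and 4724.5 UMIs and 1645 genes in WT. The median mitochondrial share was 5.30% of UMIs in 5XFAD and 5.18% in WT. In cluster 0 no 5XFAD cell but 18 WT cells had 2500 genes or more, and in the whole libraries 0 5XFAD cells and 106 WT cells did. The libraries shared 3 cell barcodes. Cd79a was detected in 100% of cluster 0 cells of both libraries, and the T cell receptor gene Trac had 6 UMIs in 5XFAD and 3 UMIs in WT, against 814 and 632 UMIs in the T lineage clusters 8 and 10. The cluster sizes are not compared as cell type shares, because genes that define the clusters differed between the libraries.

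The deposited cells carry no names, and the working label of cluster 0 rests on Cd79b, Ighm, Iglc2, Iglc3 and Ciita. Cd79b (GRCm38 chromosome 11, 106311341 to 106314762) was at 684 CPM (UMIs of the gene, scaled by all UMIs of the cluster in that library) in 5XFAD and 836 CPM in WT, the highest of clusters 0 to 5 in both libraries. Ighm, the IgM heavy chain constant region (chromosome 12, 113418558 to 113422730), was also highest in cluster 0 in both, at 1334 CPM in 5XFAD and 2024 in WT. Iglc2 (chromosome 16, 19198396 to 19200351) and Ciita (chromosome 16, 10480059 to 10528418) ranked behind cluster 5 in both libraries. Iglc3 (chromosome 16, 19065230 to 19065681) ranked first in 5XFAD, at 285 CPM, and behind cluster 5 in WT, at 378 CPM. The clusters were made from these genes, so the order is a description of the cluster and no test of it.

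Iglc2 and Iglc3, the lambda constant genes that mark cluster 0, are close copies, and a read can be hard to assign between them. For these genes and Iglc1, 120 coding bases from near the start show where they can be told apart. They were read from the same starting motif on the minus strand of GRCm38 in the GENCODE annotation. Capitals mark the 30 positions at which the 3 genes are not all the same.
Iglc1 (chr16:19061950-19062069): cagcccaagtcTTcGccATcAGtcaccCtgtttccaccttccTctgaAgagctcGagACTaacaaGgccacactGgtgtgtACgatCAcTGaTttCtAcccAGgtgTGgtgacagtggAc
Iglc2 (chr16:19198731-19198850): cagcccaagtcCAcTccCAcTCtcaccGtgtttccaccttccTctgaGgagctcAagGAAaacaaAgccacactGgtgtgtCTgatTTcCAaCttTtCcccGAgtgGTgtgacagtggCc
Iglc3 (chr16:19065560-19065679): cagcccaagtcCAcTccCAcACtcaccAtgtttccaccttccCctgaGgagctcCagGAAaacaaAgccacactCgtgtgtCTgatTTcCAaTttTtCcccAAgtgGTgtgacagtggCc
Iglc3 differed from Iglc2 at 7 of these positions and Iglc1 at 28. Over their whole transcripts Iglc2 and Iglc3 were 94.1% identical, against 66.7% for Iglc1 and Iglc2, so the split of UMIs between Iglc2 and Iglc3 is uncertain and their sum is safer than either value.

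All 3 lambda genes and the heavy chain genes were higher in cluster 0 than in clusters 1 to 5 summed, in each library. Iglc2 was at 481 CPM in cluster 0 against 293 CPM in clusters 1 to 5 of 5XFAD, and at 709 against 378 CPM in WT, log2 ratios of 0.71 (0.62 to 0.81) and 0.91 (0.83 to 0.98). Iglc3 was at 285 against 142 CPM in 5XFAD and 378 against 205 CPM in WT, and Iglc1 at 119 against 59.6 CPM and 179.6 against 90.01 CPM. Ighm had ratios of 0.65 (0.60 to 0.71) in 5XFAD and 0.60 (0.56 to 0.64) in WT, and Ighd, the IgD heavy chain, of 0.60 (0.50 to 0.70) and 0.44 (0.37 to 0.52). Igkc, the kappa constant region, differed less, with 0.24 (0.21 to 0.27) and 0.37 (0.34 to 0.40). Cd79a was nearly level between cluster 0 and clusters 1 to 5, at 0.09 (0.05 to 0.13) and 0.15 (0.11 to 0.19), unlike its partner Cd79b at 1.10 (1.02 to 1.18) and 0.82 (0.75 to 0.89). Cluster 5 was above cluster 0 in Iglc2, at 537 CPM (5XFAD) and 845 CPM (WT), and in WT also in Iglc1 and Iglc3.

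**Figure D1:**
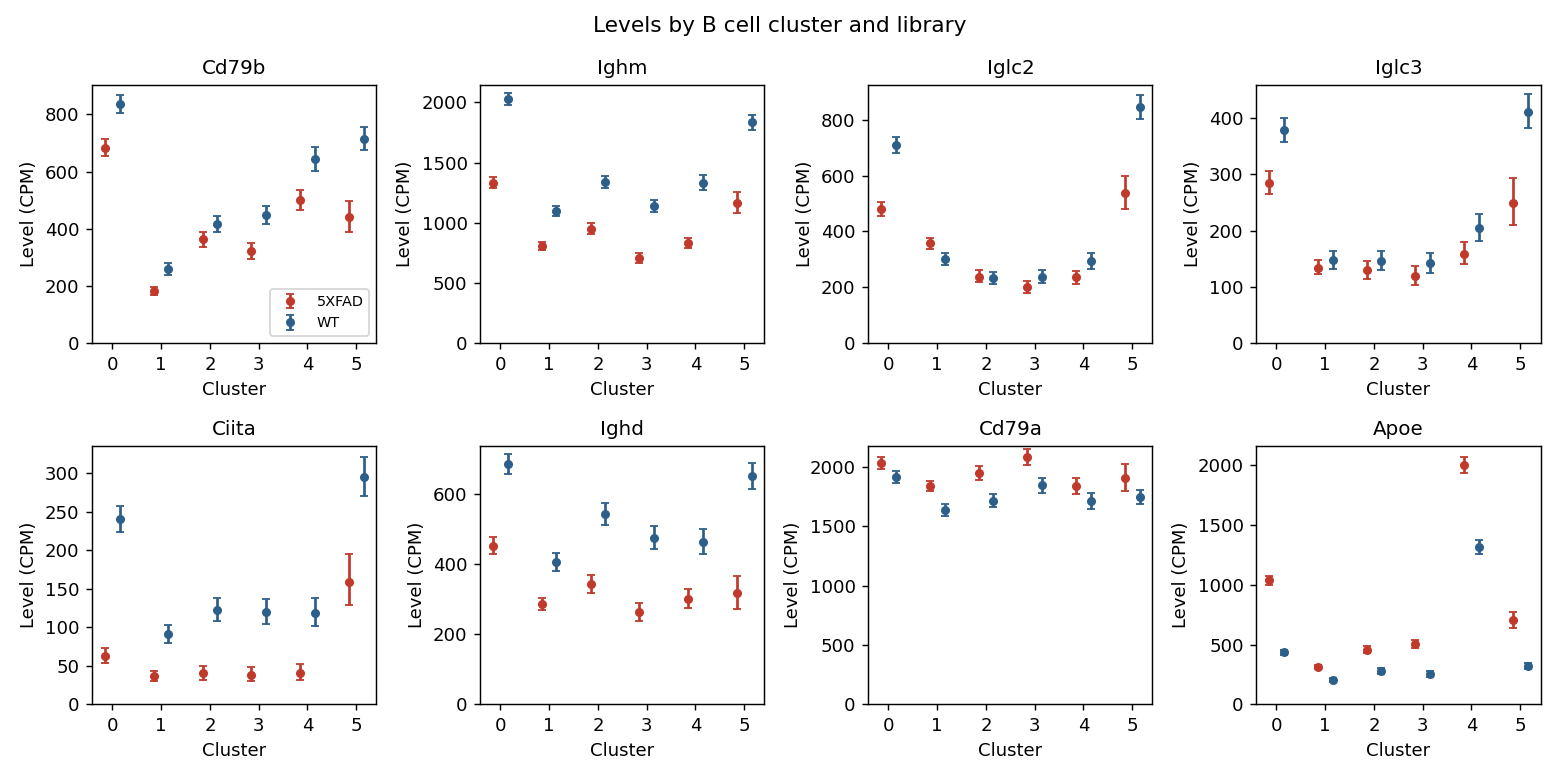
Levels in CPM (linear axes from 0) of the 5 marker genes and of Ighd, Cd79a and Apoe in clusters 0 to 5, with 5XFAD in red and WT in blue; points are summed UMIs per cluster and library and bars are exact Poisson 95% intervals. Cd79b, Ighm and Ighd were highest in cluster 0 in both libraries, while Ciita and Iglc2 were highest in cluster 5.

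Cd79b set cluster 0 apart from cluster 1 most. It was at 183 CPM in cluster 1 of 5XFAD and 259 CPM in cluster 1 of WT, and at 442 CPM in 5XFAD and 716 in WT in cluster 5. After each cell was thinned to 3000 UMIs, 79.6% of cluster 0 cells in 5XFAD and 86.7% in WT had a Cd79b UMI, and 89.3% and 93.1% before thinning. Thinning left out 10 cells of cluster 0 in 5XFAD and 31 in WT. In the T lineage clusters 8 and 10, which should lack the gene and had median depths of 4829 UMIs in 5XFAD and 5088 UMIs in WT, the thinned Cd79b shares were 1.26% and 3.94% and the unthinned shares 2.78% and 7.69%. Cd79b detection in cluster 0 was far above these shares.

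Ighm in T lineage cells was higher. The T lineage clusters held Ighm at 76.5 CPM in 5XFAD against 199.97 CPM in WT, and Iglc2 at 3.86 CPM in 5XFAD and 45.3 in WT. These levels were a small part of those in cluster 0, and they were higher in WT for both genes.

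Light chains were called per cell from constant region UMIs, with at least 3 UMIs of which over 80% were of 1 type. In cluster 0, 387 5XFAD cells and 370 WT cells had a call. Lambda cells were 17 of the 387 called in 5XFAD, or 4.39% (Clopper-Pearson 2.58 to 6.94), and 14 of the 370 called in WT, or 3.78% (2.08 to 6.27). In clusters 1 to 5 the lambda share was 3.41% (2.53 to 4.50) in 5XFAD and 2.36% (1.61 to 3.33) in WT. The intervals of cluster 0 and of clusters 1 to 5 overlapped in each library, and the difference was not tested. With at least 10 UMIs and over 90% of 1 type, the lambda share of cluster 0 was 3.38% (1.47 to 6.54) in 5XFAD and 5.26% (2.43 to 9.76) in WT. In clusters 1 to 5 it was then 1.68% (0.94 to 2.76) and 1.34% (0.64 to 2.44). By the first rule, called lambda cells of cluster 0 carried 3741 CPM (5XFAD) and 3700.3 CPM (WT) of lambda constant UMIs. They held few kappa UMIs, 174 CPM (5XFAD) and 221 CPM (WT).

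The higher lambda level of cluster 0 was also present in its kappa cells. Cells of cluster 0 called kappa held lambda constant UMIs at 473 CPM in 5XFAD and 605 in WT, against 299.5 and 313 CPM in kappa cells of clusters 1 to 5. A further 154 cells of cluster 0 in 5XFAD and 284 in WT had at least 3 light chain UMIs with neither type over 80%, and these were not called. The T lineage clusters gave a call in 15 of 252 5XFAD cells and 32 of 221 WT cells. What part free RNA, doublets or transcription of both loci had in the lambda UMIs of kappa cells was not tested.

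**Figure D2:**
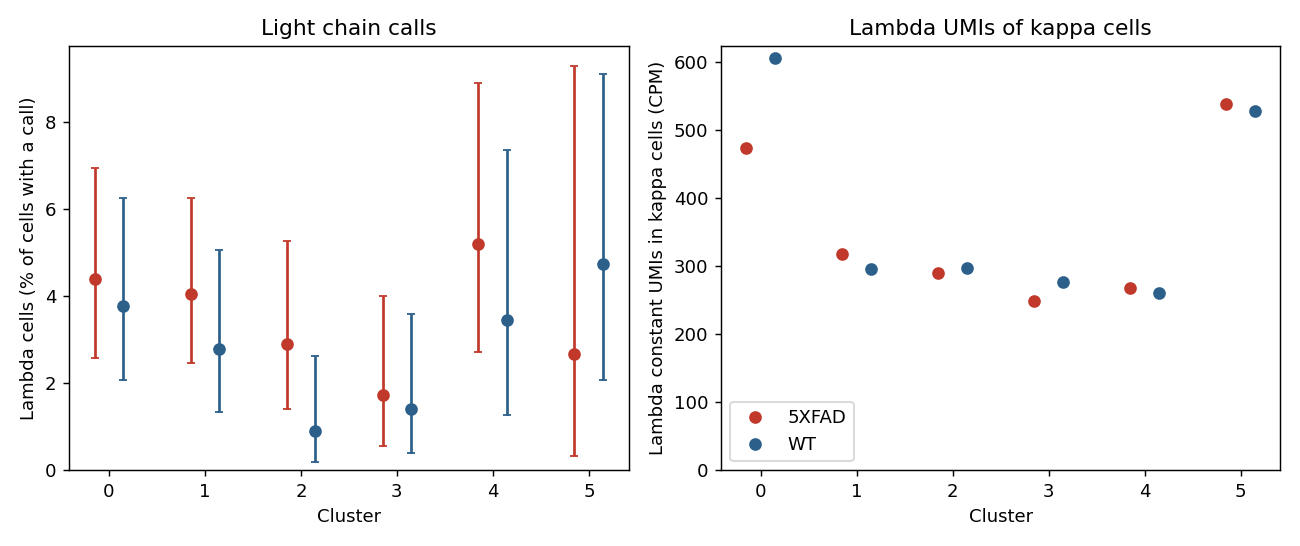
Left, the percent of cells called lambda among cells with a light chain call in clusters 0 to 5, with Clopper-Pearson 95% intervals; right, lambda constant UMIs in CPM in cells called kappa, without intervals. The intervals of the lambda shares overlap between clusters, while the lambda level of kappa cells was higher in clusters 0 and 5 than in clusters 1 to 4 in both libraries (5XFAD red, WT blue).

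Nearly all cluster 0 cells were of the unswitched heavy chain classes. Among cells with at least 3 heavy chain constant UMIs, 502 of 515 5XFAD cells, or 97.5% (95.7 to 98.6), and 634 of 651 WT cells, or 97.4% (95.9 to 98.5), had over 80% of them from Ighm and Ighd. Cells called switched numbered 1 in 5XFAD and 0 in WT (IgG, IgA or IgE), which for 0 of 651 cells allows a share of up to 0.461%. In clusters 1 to 5 the unswitched share was 94.8% (93.6 to 95.9) in 5XFAD and 94.4% (93.2 to 95.4) in WT. Only 2 of 1524 5XFAD cells and 5 of 1782 WT cells there were called switched. Cells with neither call numbered 77 in 5XFAD and 95 in WT, against 12 and 17 in cluster 0. The lower unswitched share of clusters 1 to 5 was thus mostly due to cells with neither call, and it does not show more switching there. There were 33.9 Ighd UMIs for every 100 Ighm UMIs in cluster 0 of 5XFAD and 33.8 in WT, although both genes were lower in 5XFAD.

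Beyond the immunoglobulin genes, cluster 0 differed modestly from the other B cells. A gene was counted as past the fold where it differed at least 1.5-fold with an interval that excluded no change, in the same direction in both libraries. By that rule 137 of 8336 measured genes (1.64%) were higher in cluster 0 than in clusters 1 to 5, and 91 (1.09%) were lower. With scaling by the median ratio of all genes the split was 83 higher and 136 lower. Against each cluster alone, 466 genes were higher and 300 lower than in cluster 1 (6.78% and 4.37% of those measured), 68 and 141 than in cluster 2 (1.02% and 2.13%), 223 and 20 than in cluster 3 (3.56% and 0.319%), 141 and 8 than in cluster 4 (2.26% and 0.128%), and 61 and 113 than in cluster 5 (1.05% and 1.95%). These counts also follow the number of UMIs in each cluster, so they do not rank the clusters by distance.

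Besides Iglc1, Iglc3 and Cd79b, the genes that led cluster 0 were Slfn2, Ltb, Cd38, Card6 and BE692007. Slfn2, a Schlafen family gene that keeps mouse T cells quiescent, was at 217 CPM in cluster 0 against 87.9 CPM in clusters 1 to 5 of 5XFAD and at 162 against 88.3 CPM in WT, with ratios of 1.30 (1.15 to 1.45) and 0.87 (0.71 to 1.03). Cluster 4 was close to cluster 0 in Slfn2, at 174.5 CPM in 5XFAD and 188 in WT. Ltb, the lymphotoxin beta subunit that helps organise lymphoid follicles, was at 203 against 109 CPM in 5XFAD and 337 against 190.4 CPM in WT (0.90 and 0.83). Cd38, an ectoenzyme of resting mouse B cells, had ratios of 0.75 in 5XFAD and 0.78 in WT. Cluster 5 was level with cluster 0 within counting error for both, with Ltb at 203 CPM (5XFAD) and 349 CPM (WT) and Cd38 at 115 CPM (5XFAD) and 216 CPM (WT). Bcl2, the survival gene, had ratios of 0.72 in 5XFAD and 0.71 in WT.

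The genes lower in cluster 0 included several that cells induce on stimulation or hypoxia. Hilpda, a lipid droplet protein induced by hypoxia, was at 31.6 CPM in cluster 0 against 110.2 CPM in clusters 1 to 5 of 5XFAD and at 30.6 against 69.7 CPM in WT, with ratios of -1.80 (-2.13 to -1.49) and -1.19 (-1.51 to -0.88). Nr4a3, an orphan nuclear receptor induced by antigen receptor signals, had ratios of -0.98 and -1.33, Dusp5, a phosphatase of ERK kinases, of -0.94 and -0.87, and Rrad, a small GTPase, of -0.99 and -0.98. Mpp7, Cystm1 and B4galt5 were also among the 8 lowest, between -1.89 and -0.87 in the libraries. Of the 16 leading genes in both directions, cluster 1 held the highest level of Mpp7, Hilpda, Nr4a3, Cystm1 and B4galt5 in both libraries. Low levels were shared with cluster 4. It held the lowest level of Dusp5 in both libraries, of Mpp7, Nr4a3, Rrad and B4galt5 in 5XFAD, and of Hilpda in WT. Cluster 0 was lowest for Cystm1 in both libraries, for Hilpda in 5XFAD, and for Mpp7, Nr4a3 and Rrad in WT.

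By gene list, nucleolar and ribosome biogenesis genes were below clusters 1 to 5 in cluster 0. All 20 of 20 measured members had ratios below 0 in both libraries, with medians of -0.46 in 5XFAD and -0.49 in WT, and 3 were past the fold: Nop58 (-0.91 and -0.80), Nop16 (-0.84 and -0.78) and Rrp12 (-1.13 and -1.71). The medians of all 8336 measured genes were 0.10 in 5XFAD and 0.06 in WT, and 24.3% of them were below 0 in both libraries. Against cluster 1 alone the list medians were -0.89 in 5XFAD and -1.07 in WT, against cluster 2 -0.47 and -0.43, and against cluster 5 0.05 and 0.09. Against cluster 3 they were -0.05 and -0.32, with 10 of 18 members below 0 in both libraries, and against cluster 4 0.15 and -0.05.

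Immediate early genes, the first genes transcribed after a stimulus, were below 0 in both libraries in 16 of 22 members of their list, with medians of -0.39 in 5XFAD and -0.43 in WT. The 6 past the fold were Nr4a1 (-0.71 and -0.87), Nr4a2 (-1.27 and -1.71), Nr4a3, Klf4 (-0.74 and -0.81), Atf3 (-2.07 and -1.39) and Myc (-1.36 and -0.76). Heat shock chaperones were below 0 in both in 10 of 12 members, with medians of -0.30 and -0.40. Both lists split the other clusters: against cluster 5, 20 of 21 immediate early genes and 12 of 12 chaperones were below 0 in both libraries, with medians of -1.36 and -1.38 in 5XFAD and -1.11 and -1.14 in WT, while against cluster 4 the medians were 0.29 and 0.16 in 5XFAD and 0.45 and 0.35 in WT. Cluster 5 held 119 cells in 5XFAD and 396 in WT.

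B cell identity genes were above clusters 1 to 5 in both libraries in 13 of 15 members, where 44.0% of all genes were, with medians of 0.25 in 5XFAD and 0.30 in WT, and 2 were past the fold, Cd79b and Ighm. Receptor brake genes such as Cd22, Siglecg and Fcgr2b had medians of 0.35 and 0.41, with 0 of 11 past the fold upwards and Lilrb4a (-0.89 and -0.87) past it downwards. Against cluster 5 alone the brake medians were -0.15 in 5XFAD and 0.03 in WT. Interferon gamma response genes had medians of 0.29 and 0.41 against clusters 1 to 5, and 8 of 13 were above 0 in both. Their medians were above 0 against each of clusters 1 to 4. Against cluster 5 they were -0.65 in 5XFAD and -0.26 in WT, with 7 of 9 members below 0 in both. MHC class II genes (medians 0.10 and 0.03) and oxidative phosphorylation genes (-0.03 and -0.03) lay close to 0, and 1 member of the second list, Atp5md, was past the fold downwards (-0.83 and -0.87).

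**Figure D3:**
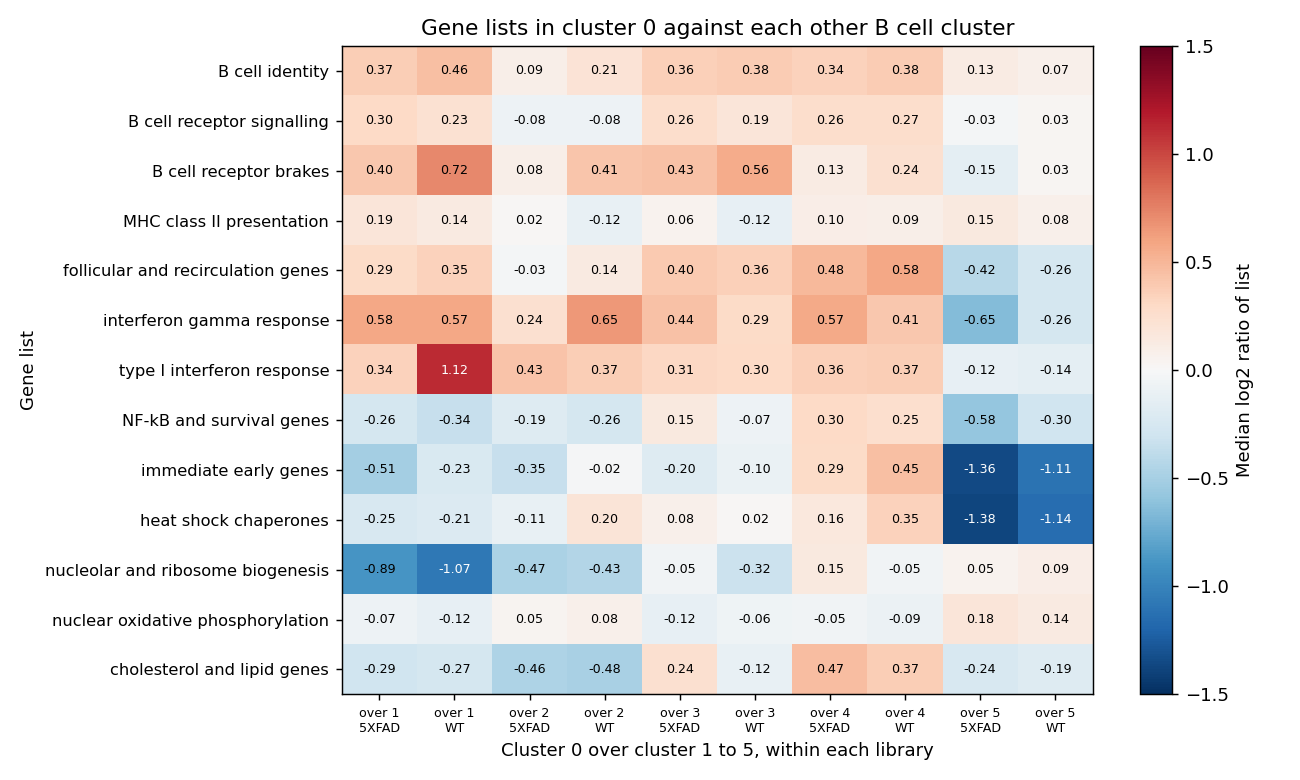
Median log2 ratio of each gene list in cluster 0 over each of clusters 1 to 5, within 5XFAD and within WT; red is higher in cluster 0 and blue lower. Nucleolar genes were lowest against cluster 1 (-0.89 in 5XFAD and -1.07 in WT), and immediate early and heat shock genes against cluster 5 (-1.36 and -1.38 in 5XFAD, -1.11 and -1.14 in WT).

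The maturity of the cells was read from lists of stage-specific genes. Genes of germinal centre B cells were scarce in cluster 0: only 2 of 11 list members had 50 UMIs or more. Of age-associated B cell genes, Itgax had 0 UMIs in both libraries, which allows up to 1.05 CPM in 5XFAD and 0.935 CPM in WT. Of the 4 measured members of that list 3 were above clusters 1 to 5 in both libraries, among them Zeb2 (0.41 and 1.01), and 0 were past the fold in both; the list medians were 0.45 and 0.56. Cd5, of B-1 cells, had 5 UMIs in 5XFAD and 3 in WT. Of transitional genes, Cd93 was at 14.8 CPM in cluster 0 against 6.19 CPM in clusters 1 to 5 of 5XFAD and 24.0 against 10.9 CPM in WT, but 4.07% of thinned 5XFAD cells and 5.94% of thinned WT cells of cluster 0 had a Cd93 UMI, and the type 2 innate lymphoid cells of cluster 9 had 5.43% and 11.3%. Before thinning these shares were 6.0% and 8.87% in cluster 0 and 9.30% and 14.8% in cluster 9, whose median depths were 5559 UMIs in 5XFAD and 6268.5 UMIs in WT. Of plasma cell genes, Jchain had 27 UMIs in 5XFAD and 68 in WT, or 9.49 and 21.2 CPM, below the 16.2 and 88.9 CPM of the T lineage clusters, and Tnfrsf17 had 0 UMIs in both libraries. Sdc1, a surface proteoglycan of plasma cells, was past the fold higher in cluster 0 than in clusters 1 to 5, with 38 UMIs in 5XFAD and 42 in WT and ratios of 1.41 and 1.02. Xbp1, a regulator of secretion, was at 133 CPM (5XFAD) and 79.5 CPM (WT), and Pou2af1, a B cell coactivator, at 203 and 151 CPM, neither past the fold against clusters 1 to 5.

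Within cluster 0 the libraries differed broadly. Of 7474 genes that reached 50 UMIs in the sum of the libraries, 518 (6.93%) were higher and 971 (13%) lower in 5XFAD than in WT, at least 1.5-fold with an interval that excluded no change. The split depended on the scaling: it was 685 higher and 782 lower with median-of-ratios scaling, and 766 higher and 711 lower when totals left out immunoglobulin, mitochondrially encoded and ribosomal protein genes. In clusters 1 to 5 the same rule gave 389 higher (4.22%) and 1335 lower (14.5%) of 9226 genes, but cluster 5 made up 119 of 1814 of those cells in 5XFAD and 396 of 1884 in WT, so their summed ratio also follows that mix. The median ratio of all genes was -0.06 in cluster 0, and 55.2% of them were below 0. Ribosomal protein genes took 32.4% of UMIs in 5XFAD and 28.1% in WT, and the log2 ratio was lower for genes with longer transcripts (Spearman rho -0.39 with the longest annotated transcript across 7431 genes, which are not independent replicates). The part of these in the results below was not tested.

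Receptor genes of cluster 0 were lower in 5XFAD or nearly level. Cells entered the cluster partly by the level of these genes, which limits what their ratios within it can show. Ighm was at 1334 CPM in 5XFAD against 2024 CPM in WT, a log2 ratio of -0.60 (-0.66 to -0.54), and Ighd at 452 against 684 CPM, also -0.60 (-0.70 to -0.50). Iglc2 (-0.56), Iglc3 (-0.41) and Iglc1 (-0.59) were lower too. Cd79b was at 684 against 836 CPM, -0.29 (-0.38 to -0.21), and Cd79a at 2033 against 1914 CPM, 0.09 (0.04 to 0.14). Igkc did not differ beyond counting error, at 4553 CPM in 5XFAD and 4516 in WT (0.01, -0.02 to 0.05). B cell UMIs in the T lineage clusters were lower in 5XFAD for all of these genes that were compared there, whether or not they were lower in cluster 0: the ratios were -1.39 for Ighm, -3.55 for Iglc2, -3.23 for Iglc3, -2.51 for Cd79b, -2.74 for Igkc and -1.78 for Cd79a. In WT, 3 T lineage cells called kappa from at least 10 UMIs held Igkc at 32641 CPM, so few cells carried much of the Igkc ratio. Whether the B cell UMIs in the T lineage clusters were free RNA or doublets was not tested. Of 15 B cell identity genes, 12 were below 0 and 4 past the fold, all lower: Cd22, Pax5, Ighd and Ighm. Among all measured genes 55.2% were below 0 and 13% lower past the fold. Ebf1, which with Pax5 specifies the B lineage, was at 1909.95 CPM in 5XFAD and 1666 in WT (0.20, 0.14 to 0.25).

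Of 11 measured receptor brakes 8 were below 0 and 3 past the fold, all lower. Of all measured genes 55.2% were below 0, 13% were lower past the fold and 6.93% higher. The median of the brakes was -0.36, against -0.42 for the signalling genes. Ptpn6, which encodes the phosphatase SHP-1 (chromosome 6, 124720707 to 124738714), was at 72.7 CPM in 5XFAD against 252 CPM in WT, -1.79 (-2.02 to -1.57), and Cd22, which recruits it (chromosome 7, 30865402 to 30880342), at 109.99 against 264 CPM, -1.26 (-1.45 to -1.07). In clusters 1 to 5 the ratios of Ptpn6 and Cd22 were -1.21 and -1.15. Siglecg, a related inhibitory lectin, was the other past the fold (-0.70). Fcgr2b (-0.23), Cd72 (-0.27), Csk (-0.36) and Dok3 (-0.36) differed less, and Inpp5d (0.27), Lilrb4a (0.44) and Ptpn22 (0.54) had ratios above 0. Of 15 signalling genes, 3 were lower past the fold, among them Malt1 (-0.90), of the branch to NF-kB, and Plcg2 (-0.71), of the branch to calcium, and 1 was higher, the Src family kinase Fyn (0.77). The kinases Lyn (0.56) and Btk (0.45) had ratios above 0 and Syk (-0.33) below, none past the fold.

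Ciita was among the 10 genes most clearly lower in 5XFAD, at 62.6 CPM against 239.8 CPM in WT, -1.94 (-2.18 to -1.70). It was lower in each of clusters 1 to 5 too, with ratios between -1.64 and -0.89. After thinning, 15.2% of 5XFAD cells and 47.2% of WT cells of cluster 0 had a Ciita UMI, and 25.6% and 60.6% before, whereas T lineage cells had 0% and 2.46% thinned and 0% and 4.07% unthinned. The class II genes that Ciita switches on were not lower. H2-Ab1 was at 4719.5 CPM in 5XFAD against 3535 CPM in WT (0.42, 0.38 to 0.45), H2-Eb1 at 3818 against 2916 CPM (0.39, 0.35 to 0.43), H2-Aa at 4722 against 4274 CPM (0.14, 0.11 to 0.18), and Cd74, the invariant chain, at 11734 against 10233 CPM (0.20, 0.18 to 0.22). Of 15 measured class II presentation genes, 11 were above 0, 1 was higher past the fold (Rfxap, 0.69) and 3 lower (Ciita, Rfx5 at -0.87 and Ifi30 at -0.64). Of all measured genes 44.8% were above 0, 6.93% were higher past the fold and 13% lower.

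The lowest ratios among the named genes were those of heat shock and immediate early genes. Hspa1a, an inducible HSP70 chaperone (chromosome 17, 34969190 to 34972156), had 3 UMIs in 5XFAD against 200 (62.4 CPM) in WT, a log2 ratio of -5.89 (-8.18 to -4.32), and its neighbour Hspa1b 6 UMIs against 296, -5.45 (-6.91 to -4.31). The pair is 85.2% identical as transcripts, so the split between them is uncertain. The Hspa1a UMIs lay in 3 cells in 5XFAD and 79 cells in WT. In single clusters 1 to 5 the Hspa1a ratio ranged between -4.26 (cluster 1) and -0.86 (cluster 5), and it was -2.52 over their sum. Of 12 measured chaperones 12 were below 0 and 6 lower past the fold, where 55.2% and 13% of all measured genes were. The 6 included Hsph1 (-2.19), Hspa8 (-0.71) and Hsp90aa1 (-0.66), and the list median was -0.61. The smallest difference, that of Hspe1 (-0.06), changed sign with both other scalings.

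Jun, a partner of Fos proteins in AP-1 (chromosome 4, 95049034 to 95052222), was at 48.8 CPM in 5XFAD against 324 CPM in WT, -2.73 (-3.00 to -2.47), and had a UMI in 103 5XFAD cells and 333 WT cells. Fosb (-2.10) and Egr3 (-2.001) followed. Of 21 measured immediate early genes 9 were lower past the fold, where 13% of all measured genes were. The 9 included Fos, Jund, Egr1, Klf4, Klf6 and Zfp36. The list was not uniform: Ier2 was higher at 0.65 (0.51 to 0.80), Nr4a2 at 0.78 (0.23 to 1.33), and Junb was at 1088 CPM in 5XFAD and 803 in WT (0.44, 0.36 to 0.51). The list median was -0.42, and -0.16 without the cells that held an Hspa1a or Hspa1b UMI. That filter left 543 5XFAD cells and 509 WT cells and moved the Jun ratio to -2.43. The Jun ratio was nearer 0 in each of clusters 1 to 5, between -2.22 (cluster 4) and -1.11 (cluster 2), and -1.36 in cluster 5, where the gene was highest at 672 CPM in 5XFAD and 1730.2 in WT.

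**Figure D4:**
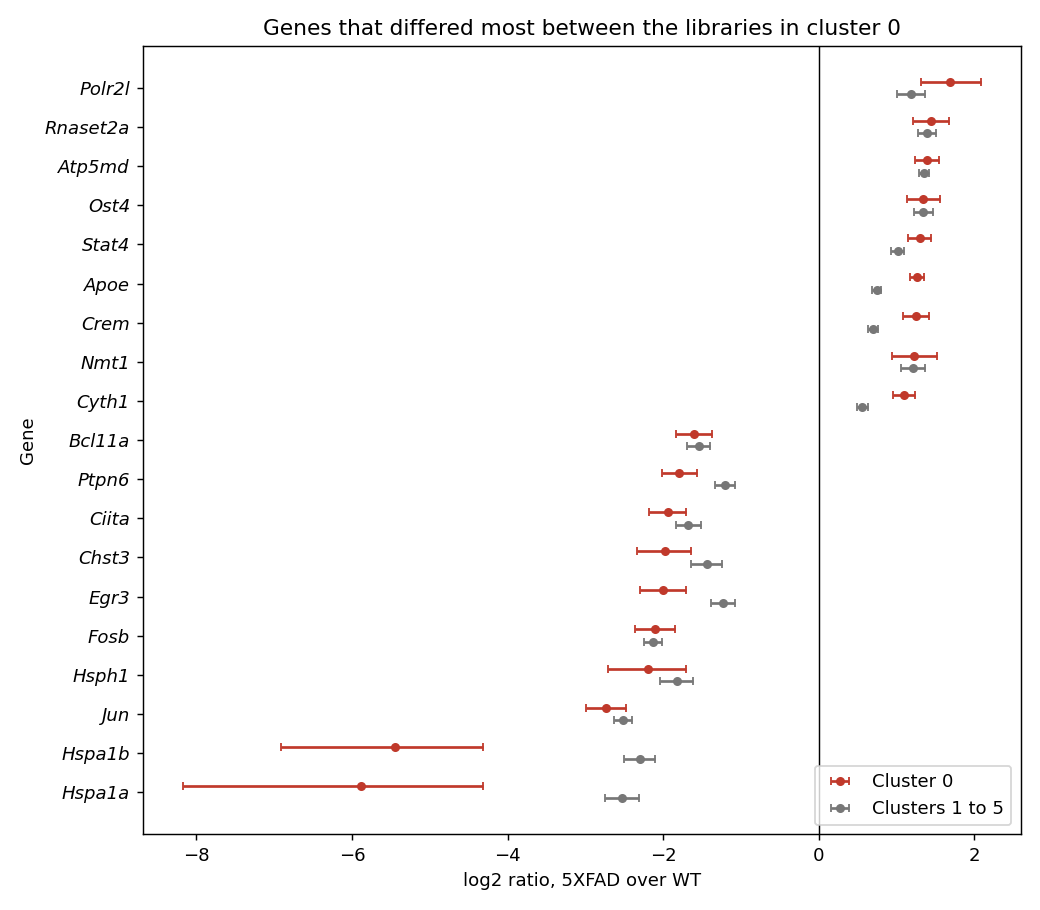
Log2 ratio of 5XFAD over WT with 95% counting intervals for genes among the 10 most clearly higher and the 10 most clearly lower in cluster 0 (red) and the same genes in clusters 1 to 5 (grey). Hspa1a and Hspa1b lie near -5.89 and -5.45 in cluster 0 and near -2.52 and -2.30 in clusters 1 to 5; Apoe lies at 1.26 and 0.74.

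The other genes most clearly lower were Chst3, a chondroitin sulfotransferase, at 29.5 CPM in 5XFAD against 117 CPM in WT (-1.98), and Bcl11a, a transcription factor needed for B cell development, at 71.7 against 218 CPM (-1.60). Interferon response genes were more often lower than higher. Of all measured genes 55.2% were below 0 and 13% lower past the fold. Of 11 measured interferon gamma response genes 8 were below 0 and 6 lower past the fold, with a list median of -0.61. The 6 were Ciita, Irf8 (-1.29, -1.45 to -1.13), Cd274 (-0.76), Gbp4 (-0.85), Psmb9 (-0.61) and Tap1 (-0.89). Irf8, a transcription factor of B and myeloid cells, was at 151 CPM in 5XFAD against 369 CPM in WT. Socs3 was higher (0.59). Of 10 type I interferon genes 4 were past the fold, all lower (Stat2, Ifi203, Ddx58 and Trim30a), with a median of -0.55. The strongly induced members Ifit1 and Ifi44 had 0 UMIs in both libraries.

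Genes of oxidative phosphorylation were higher in 5XFAD. Of 40 nuclear-encoded members 39 were above 0 and 13 past the fold, with a median of 0.48, where 44.8% of all genes were above 0. Atp5md, an ATP synthase subunit, was at 401 CPM in 5XFAD against 153 CPM in WT (1.39, 1.24 to 1.55), Ndufb4 of complex I at 142 against 74.5 CPM (0.93), and Atp5k at 176 against 93.5 CPM (0.91). Cox4i1 was the 1 member below 0 (-0.07, -0.17 to 0.03), and it was at 0.02 when totals left out immunoglobulin, mitochondrially encoded and ribosomal protein genes. The median transcript length of this list was 865 bases against 3449 for all genes, and genes with a longest transcript of at most 2650 bases had a median ratio of 0.15, against -0.29 for those of 4339 bases or more. Whether length accounts for the list's ratio was not tested. Nucleolar genes were lower in cluster 0 than in clusters 1 to 5 summed, but not than in cluster 5 alone. Between genotypes they were above 0 in 14 of 18 members, with a median of 0.40. Of them 6 were past the fold, among them Nop10 (0.78), Nop16 (0.76) and Wdr43 (0.67), where 6.93% of all measured genes were higher past it.

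Other short transcripts were among the genes most clearly higher. Polr2l, an RNA polymerase subunit, was at 78.4 CPM in 5XFAD against 24.3 CPM in WT (1.69, 1.31 to 2.08), and Ost4, of the oligosaccharyltransferase, at 209 against 82.6 CPM (1.34). Rnaset2a (1.44) is 99.1% identical to Rnaset2b, so its reads may be split between the copies. Longer genes were also among the leaders: Stat4, a signal transducer of interleukin 12, was at 399 against 162 CPM (1.29), and Cyth1 (1.09), Crem (1.247) and Nmt1 (1.22) were higher.

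Apoe, a lipid carrier and a risk gene of Alzheimer disease in people (chromosome 7, 19696109 to 19699188), was at 1038 CPM in 5XFAD against 434 CPM in WT, 1.26 (1.17 to 1.35). A UMI was found in 69.8% of thinned 5XFAD cells and 45.4% of thinned WT cells, and in 76.2% and 53.5% before thinning. T lineage cells had 4.62% in 5XFAD and 5.91% in WT thinned, and 8.33% and 12.2% unthinned. Their Apoe level was nevertheless higher in 5XFAD, at 78.0 CPM against 29.1 CPM in WT, from 101 and 34 UMIs. The ratio was 1.43 (0.85 to 2.03), next to the 1.26 of cluster 0. Since the share of T lineage cells with a UMI was lower in 5XFAD, few cells may carry much of that ratio. Its counting interval does not cover this. In the innate lymphoid cells of cluster 9 it was 0.15 (-0.63 to 0.94), from 33 UMIs in 5XFAD and 27 in WT. What part RNA from other cells had in these ratios was not tested. In the other B cell clusters the Apoe ratio was between 0.60 (cluster 4) and 1.13 (cluster 5), and the level was highest in cluster 4, at 2001 CPM in 5XFAD and 1316 in WT. The median of the 16 cholesterol and lipid genes was -0.39, with Abca1, the exporter that lipidates Apoe, at 0.33 (0.08 to 0.58).

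Follicular and recirculation genes were mostly below 0. Of 16 follicular and recirculation genes 15 were below 0 and 4 lower past the fold, where 55.2% and 13% of all measured genes were. The 4 were the complement receptor Cr2 (-0.89), Ighd, the follicle homing receptor Cxcr5 (-0.64) and Tnfrsf13c (-1.08), and the list median was -0.34. Tnfrsf13c encodes the receptor of the survival factor BAFF. NF-kB and survival genes had no common direction: 9 of 19 measured members were above 0 and 10 below, with a median of -0.08 that changed sign when totals left out immunoglobulin, mitochondrially encoded and ribosomal protein genes. Tnfrsf13b (-1.32), Bcl2 (-1.10) and Tnfrsf13c were the 3 past the fold, all lower, where 13% of all measured genes were. Nfkbia (0.44), Pim1 (0.42) and Relb (0.41) had ratios above 0. Cxcr4, the receptor of the chemokine Cxcl12, was at 221 CPM in 5XFAD and 276 in WT (-0.32, -0.47 to -0.17). S1pr4, a sphingosine phosphate receptor, was the 1 follicular and recirculation gene above 0, at 64.3 against 32.7 CPM (0.97, 0.62 to 1.33). Of 10 measured cell cycle genes only Stmn1 (0.85) was past the fold, and Mki67, of dividing cells, had 0 UMIs in both libraries.

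**Figure D5:**
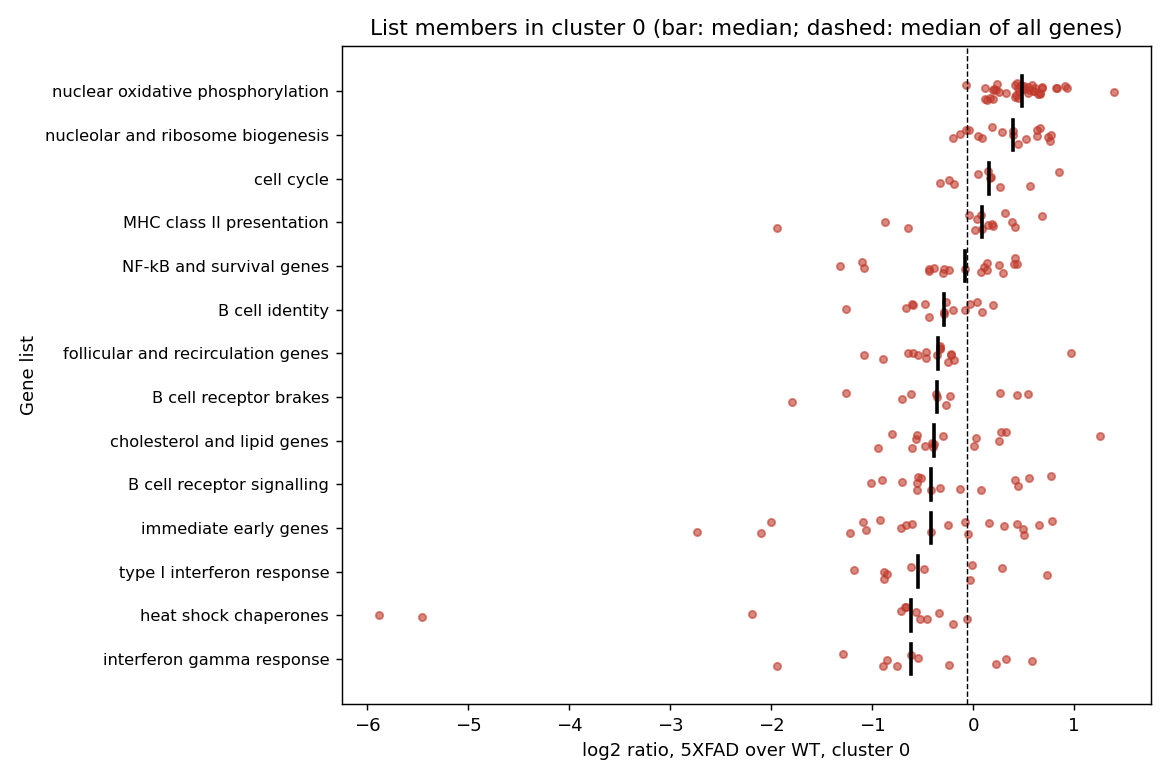
Log2 ratio of 5XFAD over WT in cluster 0 for every measured member of 14 gene lists (points), with the list median (black bar) and the median of all genes (dashed, -0.06). Among these lists, which have 10 or more measured members, oxidative phosphorylation (0.48) and nucleolar genes (0.40) had the highest medians, and interferon gamma (-0.61), heat shock (-0.61) and type I interferon genes (-0.55) the lowest.

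RNA of other cell types was scarce in cluster 0. Summed over each marker list, T cell genes had 95 UMIs in 5XFAD and 136 in WT (33.4 and 42.4 CPM), innate lymphoid and NK genes 38 and 26 UMIs, myeloid genes 152 and 173 UMIs, epithelial and stromal genes 243 and 375 UMIs, and red cell and platelet genes 5 and 47 UMIs. Most of the myeloid sum was Tyrobp (122 UMIs in 5XFAD and 112 in WT), and most of the epithelial and stromal sum was Pecam1 (167 and 334). Of the defining genes, Cd3e had 3 UMIs in 5XFAD and 2 in WT, Cd4 had 0 in both, C1qa 1 and 5, and Hbb-bs 0 and 19. Of the T cell list 1 of 14 genes was at 0 UMIs in 5XFAD and 1 in WT, of the innate lymphoid list 2 and 4 of 14, of the myeloid list 9 and 4 of 16, of the epithelial and stromal list 3 and 5 of 15, and of the red cell list 6 and 3 of 8. Without the cells that held a UMI of a T cell, innate lymphoid or myeloid marker, 366 5XFAD cells and 417 WT cells were left, and the ratios were 1.19 for Apoe, -1.78 for Ciita and -2.76 for Jun.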

How the data were processed

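Each library pooled cells of 3 mice before sequencing, and each genotype is 1 library, named AD or WT in the deposited cell table; the AD cells were assigned to 5XFAD, since WT names the other library. Reads were processed with Cell Ranger 6.0.1 against mm10, per the submitters' processing notes. The authors deposited natural log values, ln(1 + UMIs per 10000 UMIs of the cell), together with UMI counts per cell, genes per cell, the percent of mitochondrial UMIs and cluster numbers, per the file headers. The sources used here do not give filters on cells, clustering settings or doublet removal, and no doublet caller was run. A deposited table of SCT-scaled values was not used.

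The natural log values were turned back into UMI counts with each cell's deposited total. All of 11758401 values above 0 (100%) came out whole within 1e-06, and the totals matched in 6886 of 6886 cells over 32285 genes. UMIs were summed per cluster and library and scaled to CPM by the cluster's total. Log2 ratios have exact conditional binomial intervals, shares Clopper-Pearson intervals and levels exact Poisson intervals, all at 95%; UMIs remove PCR copies, and these intervals cover counting error only. Genes needed 50 UMIs over both libraries, or over cluster 0 and its comparison clusters in each library. A count of 0 was read as allowing 3 counts. Thinning drew 3000 UMIs per cell. Scripts used Python 3.11.15, numpy 2.4.6, scipy 1.17.1, pandas 2.3.3 and matplotlib 3.10.9, and were tested on simulated data. Gene coordinates, transcript lengths and sequences are from GENCODE M21 (GRCm38).

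The named genes were the 5 markers, the 10 higher and 10 lower genes between genotypes whose interval bound lay farthest from no change (at least 50 CPM in the higher library), the 8 higher and 8 lower against clusters 1 to 5 in both libraries, and the highest and lowest member of each list with 5 or more measured genes; immunoglobulin segments, ribosomal protein and mitochondrially encoded genes were left out. Other list members are named beside their list's count. Some of these genes are not reported here. The cluster, the 25 gene lists and the naming rule were chosen with earlier results of these data known. The comparisons with single clusters, heavy chain classes, lambda UMIs of kappa cells, transcript length and ribosomal protein share were chosen after these data were seen. Alternatives changed the scaling, the UMI filter, the cells kept, the depth, the comparison clusters and the light chain rule.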

Additional observations from a re-analysis of the deposited data

Results flagged for a closer look

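3 genes of the lists had a log2 ratio of 5XFAD over WT in cluster 0 and in clusters 1 to 5 with intervals on opposite sides of 0; 34 of 7474 genes did so in all, and the difference between the ratios was not tested. Junb, an AP-1 subunit, had 0.44 in cluster 0 (1088 CPM in 5XFAD and 803 CPM in WT) and -0.060 in clusters 1 to 5 (1232 CPM in 5XFAD and 1284.5 CPM in WT). Rel, an NF-kB subunit, had 0.26 in cluster 0 (1035 and 866 CPM) and -0.050 in clusters 1 to 5 (1380.3 and 1429 CPM). Myc, a growth regulator, had -0.42 in cluster 0 (43.9 and 58.6 CPM) and 0.19 in clusters 1 to 5 (113 and 99.2 CPM). Cluster 5 held 119 cells in 5XFAD and 396 in WT; over clusters 1 to 4, chosen after the data were seen, the ratios were 0.02 for Junb, -0.12 for Rel and 0.42 for Myc. In single clusters the ratio of Junb was 0.14 (0.06 to 0.23) in cluster 3 and 0.15 in cluster 4, that of Rel was 0.29 (0.17 to 0.41) in cluster 5, as high as in cluster 0, and -0.25 in cluster 1, and that of Myc was 0.45 in cluster 1 and -0.62 in cluster 3.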

How the results depend on the processing

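Between genotypes, no named ratio past the fold in cluster 0 turned its direction under the alternatives run. Values near 0 did: Igkc was at -0.003 and Fbl at 0.02 with thinned cells, Hspe1 at 0.002 and 0.03 with the other scalings, Cox4i1 at 0.02 and the NF-kB and survival median at 0.02 without immunoglobulin, mitochondrially encoded and ribosomal protein genes, and B4galt5 at -0.17 and the plasma cell median at -0.03 without cells holding another lineage's marker. With a minimum of 200 UMIs the counts between genotypes in cluster 0 were 237 higher and 429 lower, out of fewer genes. Against the other B cells, 83 genes were higher with median-of-ratios scaling, 82 with clusters 1 to 5 weighted equally and 216 with clusters 1 to 4 alone; the cause was not tested. Of the cells of clusters 0 to 5 only, cluster 0 held 23.3% in 5XFAD and 25.8% in WT, a smaller denominator. Calling light chains from 1 UMI at over 50% gave 6.97% lambda cells in WT. These were the 8 counts that moved by over 1.5 times and shares that left their interval; 24 others did not. Of named genes, 651 recomputed ratios stayed within their counting interval and 27 left it. The 651 include 68 for each change of the UMI filter, which cannot alter the ratio of a gene. The list medians that moved most were those of plasma cell genes (above), of immediate early genes, at -0.16 without cells holding Hspa1a or Hspa1b and -0.60 with a minimum of 200 UMIs, and of NF-kB and survival genes, at -0.27 with thinned cells; the oxidative phosphorylation median was 0.54 and 0.58 with the other scalings. Without cells holding Hspa1a or Hspa1b UMIs, the ratio of Apoe was 1.13 and that of Iglc3 -0.25. No paired analysis was possible because each genotype is 1 library, and for the same reason no library could be left out.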
